A study of Mus musculus with 4 samples.

Results

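The Ms4a genes named for this description are Ms4a4a, Ms4a4c, Ms4a6b, Ms4a6c, Ms4a6d and Ms4a7, 6 genes taken by symbol from a table of 21523 Ensembl gene identifiers. Of the 6, 5 have a row that was used, and Ms4a4a was not analysed here. The genes were chosen by symbol, with their FPKM in these same 4 libraries and its difference between 1,5-AG and control already known, so the differences between the groups are given as a description and support nothing beyond it. The cells are RAW264.7, a mouse macrophage-like line from a tumour induced by Abelson leukaemia virus, grown in DMEM with 10% fetal bovine serum. The tested cultures received 0.5 mM 1,5-anhydroglucitol (1,5-AG, a glucose-like polyol without the hydroxyl group at carbon 1) for 24 h (n = 2 libraries). The control cultures received no treatment (n = 2 libraries), and no culture time is given for them in the labels. Nothing in the labels says that the 2 libraries of a group came from separate cultures, so their spread may be technical, and both groups come from 1 transformed line.

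MS4A proteins are small membrane proteins that cross the membrane several times and are made mainly by blood cells. The best known are CD20 (Ms4a1) of B cells and the beta chain of the high-affinity IgE receptor (Ms4a2) of mast cells. Several others belong to monocytes and macrophages, where they associate with pattern recognition and Fc receptors. Human MS4A4A marks alternatively activated macrophages, MS4A7 marks mature macrophages, and human variants of the locus are linked to Alzheimer's disease. In mouse, Ms4a4c is interferon-inducible, Ms4a6c is abundant in monocytes, Ms4a6b is also made by T cells, and Ms4a6d is expressed by macrophages.

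The genes lie in 1 cluster on chromosome 19 (mm10, GENCODE release M21), where 19 genes with an Ms4a symbol span 679 kb. Ms4a6c (chr19:11469366-11482192) and Ms4a6b (chr19:11516512-11531256) are on the plus strand, and Ms4a6d (chr19:11586604-11604849) is on the minus strand. Ms4a4a (chr19:11375523-11392790) and Ms4a4c (chr19:11404770-11427246) are on the plus strand and Ms4a7 (chr19:11321039-11336146) on the minus strand. The 3 Ms4a6 genes are close copies of each other: their coding sequences were 85.3% identical between Ms4a6b and Ms4a6c, 81.3% between Ms4a6b and Ms4a6d and 79.1% between Ms4a6c and Ms4a6d. Ms4a4c was 59.8% to 61.5% identical to the Ms4a6 genes, and Ms4a7 64.0% to 66.1%. Only aligned bases were counted. By the same alignment, all pairs of the promoter windows described below except Ms4a6b with Ms4a6c gave 49.3% to 63.0%. The longest run shared by 2 of the 3 Ms4a6 genes was 81 bases, between Ms4a6b and Ms4a6d. The stretch around it is printed because a read that falls wholly inside the 81 bases cannot be assigned to Ms4a6b or Ms4a6d alone. The stretch covers coding bases 85 to 195 and crosses an exon junction after its base 63. Capitals mark the 81 bases, or in Ms4a6c the 77 of them that are the same as in Ms4a6b.
Ms4a6b: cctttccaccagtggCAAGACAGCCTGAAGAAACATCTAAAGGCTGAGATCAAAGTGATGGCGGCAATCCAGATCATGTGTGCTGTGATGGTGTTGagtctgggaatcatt
Ms4a6d: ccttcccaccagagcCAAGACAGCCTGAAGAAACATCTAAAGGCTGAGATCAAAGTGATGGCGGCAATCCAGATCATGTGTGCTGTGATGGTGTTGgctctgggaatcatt
Ms4a6c: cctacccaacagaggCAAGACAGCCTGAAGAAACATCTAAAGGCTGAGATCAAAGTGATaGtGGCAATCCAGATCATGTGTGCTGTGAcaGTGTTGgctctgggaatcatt
The exon blocks of the stretch are chr19:11520423-11520485 and chr19:11521671-11521718 in Ms4a6b, and chr19:11603146-11603208 and chr19:11601917-11601964 in Ms4a6d. In Ms4a6c they are chr19:11471189-11471251 and chr19:11472393-11472440. Of all 50-base windows in the longest coding transcript, 5.89% of those of Ms4a6b, 11.33% of those of Ms4a6c and 2.92% of those of Ms4a6d also occur in a transcript of another gene. The same share was 8.48% in Ms4a4c, mostly with Ms4a4b, and 0% in Ms4a7. Neither the read length nor how such reads were treated is known, so levels of close copies are uncertain to that extent.

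RefSeq promoter windows (GRCm38.p6, 250 bases before to 50 after the start) matched 5 of the 6 genes by symbol, all but Ms4a6d, with 6 windows because Ms4a7 has 2. The windows of Ms4a6c (chr19:11469118-11469417, plus strand) and Ms4a6b (chr19:11518309-11518608, plus strand) are printed because both genes are expressed here and lower in the 1,5-AG libraries. The Ms4a6b window lies wholly inside the GENCODE gene, which starts at chr19:11516512, so it is for a start within that gene. The window of Ms4a4c and 1 of the 2 of Ms4a7 also lie inside their genes. The windows of Ms4a6c and Ms4a6b were 85.3% identical over 225 aligned bases, and the longest run they share was 48 bases. Capitals mark the runs of at least 15 bases that occur in both windows, 72 bases in 2 runs.
Ms4a6c: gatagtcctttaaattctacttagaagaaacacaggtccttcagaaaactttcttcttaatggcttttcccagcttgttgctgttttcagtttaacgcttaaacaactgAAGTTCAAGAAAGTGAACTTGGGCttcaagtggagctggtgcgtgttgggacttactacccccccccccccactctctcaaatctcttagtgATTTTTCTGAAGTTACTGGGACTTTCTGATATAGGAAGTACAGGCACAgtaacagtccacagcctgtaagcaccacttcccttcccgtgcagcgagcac
Ms4a6b: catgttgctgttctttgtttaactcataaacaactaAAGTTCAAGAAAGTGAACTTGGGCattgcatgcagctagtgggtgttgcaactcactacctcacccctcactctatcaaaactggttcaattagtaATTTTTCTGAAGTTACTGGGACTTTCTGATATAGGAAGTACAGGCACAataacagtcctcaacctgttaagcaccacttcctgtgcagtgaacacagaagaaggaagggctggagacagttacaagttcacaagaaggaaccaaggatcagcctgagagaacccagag
Among the other pairs of windows the longest shared run was 7 to 9 bases, and 49.3% to 63.0% of aligned bases were identical. The letters of 4 motifs were searched on both strands in the 6 windows. GAGGAA, a PU.1 type motif, was in 2 of the 6 windows (1 of Ms4a7 and that of Ms4a4c), against 28.3% of 32851 windows of all genes. The STAT6 type motif was in 2 (Ms4a6b, from base 259 of its window, and 1 of Ms4a7), against 7.0% of all windows. TGANTCA, an AP-1 type motif, was in 1 of Ms4a7, against 7.8%. The interferon response element was in 0 of the 6, against 3.4%. No matches overlapped, and the window of Ms4a6c held none of the 4 motifs.

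The libraries were scaled by 14616556 and 15112965 fragments in the 1,5-AG group and 15163807 and 16228673 in the control group. These totals were recovered from the steps of the deposited FPKM (fragments scaled by exon length and library depth). Chi-square over degrees of freedom between the libraries of a group was 2.43 for 1,5-AG and 3.33 for control, above the level of pure counting noise. Of 8 fixed macrophage markers 7 had a row that was used, and Mertk was not analysed here. Of the 7, 6 had a mean of at least 1 FPKM, among them Cd68, Csf1r, Adgre1 and Lyz2. The complement gene C1qa, also of the 7, was at 0.132 FPKM or below in every library. The summed level of the 7 was 3770 to 3850 FPKM in the 1,5-AG libraries and 5230 to 5360 FPKM in the control libraries. Most of it came from the lysozyme gene Lyz2 (3100 and 3000 FPKM with 1,5-AG, 4550 and 4420 FPKM in control, limma adjusted p = 0.0169). With any 1 library left out the log2 fold change of Lyz2 was -0.58 to -0.54, and its call was lost. The differences of the means were -4.68% for Cd68, -7.52% for Csf1r, -20.8% for Adgre1, 3.3% for Itgam and 8.34% for Fcgr1, none past the threshold. Of the B cell, T cell, mast cell and neutrophil markers with a row, Ighm (37.9 and 39.6 FPKM in 1,5-AG libraries, 49.1 and 53.5 FPKM in control libraries) and Lck (1.18 to 1.37 FPKM) had a mean of at least 1 FPKM. The summed B cell list was 38.1 to 39.8 FPKM in the 1,5-AG libraries and 49.3 to 53.8 FPKM in the control libraries, nearly all Ighm. The T cell list summed to at most 1.37 FPKM in any library. The neutrophil list summed to 0.353 to 0.394 FPKM in 1,5-AG libraries and 0.486 to 0.517 FPKM in control libraries, and the mast cell list to at most 0.0451 FPKM. The part of these shifts in the Ms4a values was not tested.

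Expression of the measured Ms4a genes came almost wholly from the 3 Ms4a6 genes. Ms4a6d was the highest, followed by Ms4a6c and Ms4a6b, while Ms4a4c and Ms4a7 were at the edge of detection. Ms4a6d, Ms4a6c and Ms4a6b were each lower in both 1,5-AG libraries than in both control libraries. The differences of the means were -41.6% of the control mean for Ms4a6d, -41.3% for Ms4a6c and -36.9% for Ms4a6b.

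**Figure D1:**
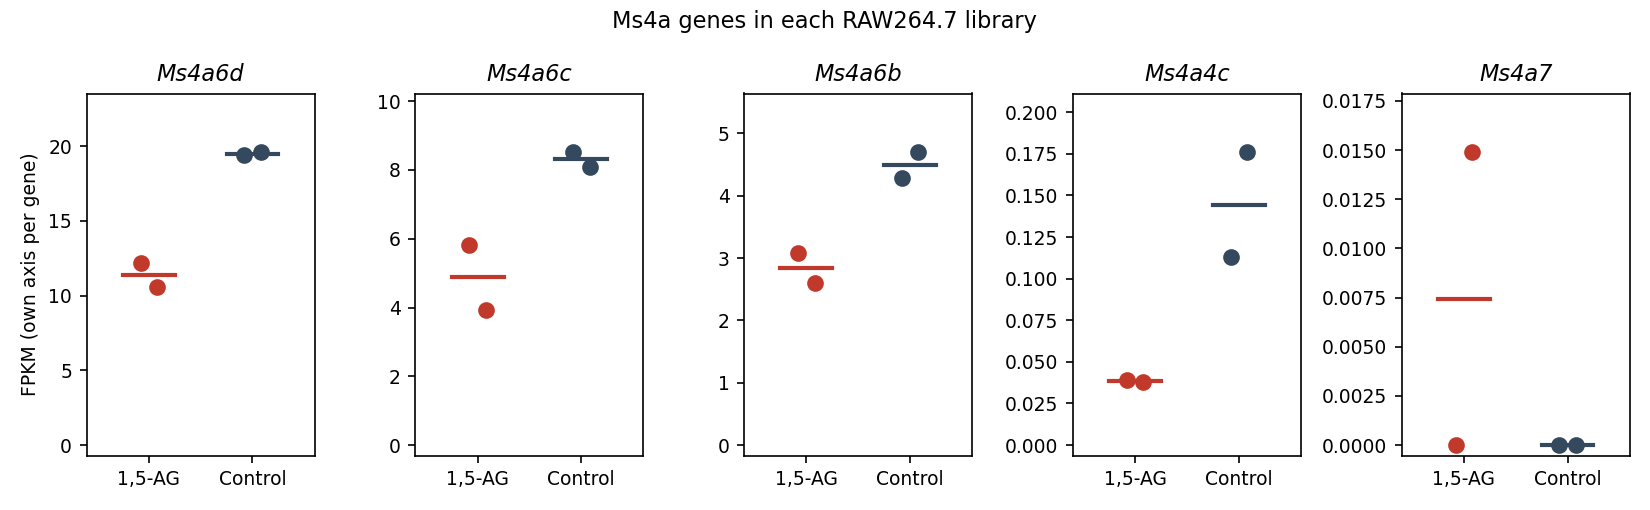
FPKM of the 5 measured Ms4a genes in each library (points) with the group mean (lines), 1,5-AG left and control right, on an axis of its own for each gene. Both 1,5-AG points of Ms4a6d, Ms4a6c and Ms4a6b lie below both control points, and no library is above 0.176 FPKM for Ms4a4c or 0.0149 FPKM for Ms4a7.

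Ms4a6d had 12.2 and 10.6 FPKM in the 1,5-AG libraries (310 and 277 fragments), against 19.4 and 19.6 FPKM in the control libraries (510 and 552 fragments). The groups did not overlap, and the control libraries lay closer together than the 1,5-AG libraries. The means were 11.4 ± 1.17 FPKM with 1,5-AG and 19.5 ± 0.155 FPKM in control (SD, n = 2 per group throughout). The log2 fold change was -0.73 (SE 0.08), on the log2(FPKM + 1) scale used for all fold changes here, and the limma fit over all 11120 tested genes gave an adjusted p of 0.0286. Ms4a6d was thus past the threshold of 0.05, the only one of the 3 tested members to be so, where 1.46% of all tested genes were past it 0.647% were past it and lower, and 0.809% past it and higher. The call held with all 4 libraries only: limma's adjusted p was 0.0827 without 1,5-AG replicate 1, 0.0891 without 1,5-AG replicate 2, 0.12 without control replicate 1 and 0.13 without control replicate 2.

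Ms4a6c had 5.81 and 3.94 FPKM in the 1,5-AG libraries (174 and 122 fragments), against 8.52 and 8.09 FPKM in the control libraries (265 and 269 fragments). The groups did not overlap, but the 1,5-AG libraries stood apart from each other. Their exact 95% Poisson intervals, which cover counting error only, were 4.98 to 6.74 FPKM and 3.27 to 4.70 FPKM and did not meet. The means were 4.87 ± 1.32 FPKM with 1,5-AG and 8.31 ± 0.311 FPKM in control. The log2 fold change was -0.68 (SE 0.16, limma adjusted p = 0.12). It was -0.91 without 1,5-AG replicate 1 and -0.45 without 1,5-AG replicate 2, so the size of the difference rests on which of these libraries is used.

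Ms4a6b had 3.08 and 2.60 FPKM in the 1,5-AG libraries (202 and 176 fragments), against 4.29 and 4.70 FPKM in the control libraries (292 and 342 fragments). The groups did not overlap. The means were 2.84 ± 0.343 FPKM with 1,5-AG and 4.50 ± 0.287 FPKM in control, with a log2 fold change of -0.52 (SE 0.10, limma adjusted p = 0.0851). Non-overlap with 1,5-AG lower, seen in 3 of the 3 tested members, held for 25.4% of all tested genes, and non-overlap in either direction for 49.6%. When voom was fitted to the recovered fragments, Ms4a6c (-0.80, adjusted p = 0.0017) and Ms4a6b (-0.67, adjusted p = 0.00126) were past the threshold with Ms4a6d, where 4.64% of the genes in that fit were past it and lower.

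Ms4a4c had 1 and 1 fragments in the 1,5-AG libraries (0.0391 and 0.0378 FPKM), against 3 and 5 fragments in the control libraries (0.113 and 0.176 FPKM). A count of 3 fragments corresponds to 0.106 to 0.117 FPKM for this gene, so a difference was not detectable at this depth. Ms4a7 had 0 and 1 fragments in the 1,5-AG libraries, against 0 and 0 in the control libraries, where 3 fragments correspond to 0.0415 to 0.0461 FPKM. Neither gene passed the filter of a mean of 1 FPKM, and neither was tested. The low levels do not show that the genes are silent in RAW264.7 cells.

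The proportions of the 3 Ms4a6 genes to each other differed little between the groups, and some overlapped. Ms4a6d made up 57.9% and 61.8% of their summed FPKM in the 1,5-AG libraries, against 60.2% and 60.5% in the control libraries. The ratio of Ms4a6c to Ms4a6d FPKM was 0.475 and 0.373 in the 1,5-AG libraries, against 0.44 and 0.412 in the control libraries. Both measures overlapped between the groups. Ms4a6b made up 14.6% and 15.2% in the 1,5-AG libraries, against 13.3% and 14.5% in the control libraries, a gap between the groups smaller than the spread within each. The ratio of Ms4a6b to Ms4a6d FPKM was 0.252 and 0.246 in the 1,5-AG libraries, against 0.221 and 0.24 in the control libraries, without overlap. The sum of the 3 was 21.1 and 17.1 FPKM with 1,5-AG, against 32.2 and 32.4 FPKM in control. In these bulk libraries, fewer cells that express the genes and less RNA per cell cannot be told apart.

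The order of levels between Ms4a6c and Ms4a6b depends on the length that fragments are divided by. The deposited FPKM came out as whole fragments with the merged exon length, which is 4485 bases for Ms4a6b, against 2050 for Ms4a6c and 1735 for Ms4a6d. Had all fragments come from the longest coding transcript, the levels would be 13.9 FPKM with 1,5-AG and 23.9 FPKM in control for Ms4a6d. They would be 5.43 and 9.25 FPKM for Ms4a6c and 4.75 and 7.52 FPKM for Ms4a6b, in 1,5-AG and in control. With the shorter transcript of Ms4a6b that has the same coding length (1687 bases), Ms4a6b would have 7.55 FPKM with 1,5-AG and 11.95 FPKM in control and stand above Ms4a6c. Ms4a6d was the highest in each case. A length common to all libraries does not change a ratio of FPKM between the groups.

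**Figure D2:**
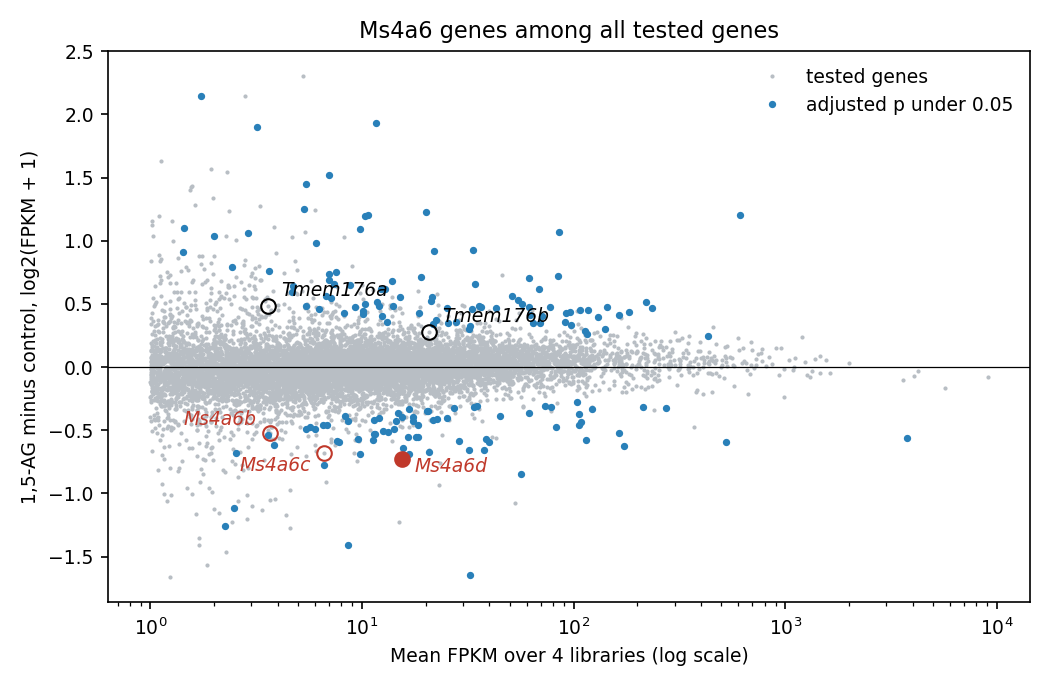
Difference between 1,5-AG and control on the log2(FPKM + 1) scale against the mean FPKM over 4 libraries (log axis) for 11120 tested genes (grey), with genes past the threshold in blue. Ms4a6d (filled red) is past it, while Ms4a6c and Ms4a6b (open red) and Tmem176a and Tmem176b (open black) are not.

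Among the tested genes the Ms4a6 genes were of middling to low abundance and at the low end of the differences. A mean level higher than that of Ms4a6d was found for 32.4% of tested genes, than that of Ms4a6c for 59.5% and than that of Ms4a6b for 75.5%. A lower log2 fold change was found for 0.531% of tested genes in the case of Ms4a6d, 0.621% for Ms4a6c and 1.27% for Ms4a6b. The median log2 fold change was -0.68 over the 3 tested members and -0.0025 over all tested genes.

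The 2 tested relatives outside the Ms4a cluster had values of the opposite sign. Of 15 other Ms4a superfamily genes, including the related tetraspan genes Tmem176a and Tmem176b, 4 have a row that was used, and the CD20 gene Ms4a1, Ms4a2 and Ms4a3 are among those not analysed here. Ms4a4b had 14 and 15 fragments in the 1,5-AG libraries, against 28 and 19 in the control libraries, and Ms4a4d had 1 and 2, against 5 and 1. Both were under the filter. Tmem176a, a cation channel-like protein of antigen-presenting cells, had 4.54 and 4.19 FPKM in the 1,5-AG libraries, against 2.80 and 2.86 FPKM in the control libraries. Its log2 fold change was 0.48 (SE 0.08, limma adjusted p = 0.0629). Its neighbour and partner Tmem176b had 24.8 and 21.0 FPKM in the 1,5-AG libraries, against 18.8 and 18.6 FPKM in the control libraries (0.27, SE 0.08, limma adjusted p = 0.188). It was 0.16 without 1,5-AG replicate 1 and 0.39 without 1,5-AG replicate 2. Both were higher in each 1,5-AG library than in each control library, as were 24.2% of all tested genes, and 0 of the 2 passed the limma test. Under voom both passed, where 402 of the 11056 genes in that fit were past the threshold and higher, and 8.28% past it in either direction.

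The tested genes around the Ms4a cluster had small differences in both directions. The list held 42 protein coding genes without an Ms4a symbol that start inside the cluster or within 500 kb of its outer ends. Of these, 17 were tested and 0 were called by limma, where 1.46% of all tested genes were, so the count says little about them. Gm8369, which lies between Ms4a6c and Ms4a6b (chr19:11485938-11512577), was under the filter and not tested. Its relation to the Ms4a genes by sequence was not checked. Gm8369 had 8 and 10 fragments in the 1,5-AG libraries, against 23 and 32 in the control libraries. Of the 17, 9 were positive and 8 negative, with a median log2 fold change of 0.01. The lowest was -0.17 for Stx3, a membrane fusion protein, with 5.88 and 6.62 FPKM in 1,5-AG libraries against 7.07 and 7.25 FPKM in control libraries. The highest was 0.36 for Slc15a3, a lysosomal peptide and histidine transporter, with 4.55 and 4.05 FPKM in 1,5-AG libraries against 2.83 and 3.41 FPKM in control libraries (limma adjusted p = 0.17). It was past the threshold under voom (0.46, adjusted p = 0.0143). The fold changes of the remaining 15 lay between these: Sdhaf2 (0.07), Cpsf7 (-0.08), Tmem216 (0.12), Tmem138 (0.11), Cyb561a3 (-0.01), Tkfc (-0.13), Ddb1 (0.03), Vps37c (-0.08), Tmem132a (0.07), Tmem109 (0.01), Prpf19 (0.08), and Ccdc86 (-0.08) on the side of Slc15a3. Mrpl16 (-0.07), Patl1 (0.08) and Osbp (-0.02) are on the side of Stx3. Each tested Ms4a6 gene had a lower log2 fold change than each of these 17 neighbours.

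**Figure D3:**
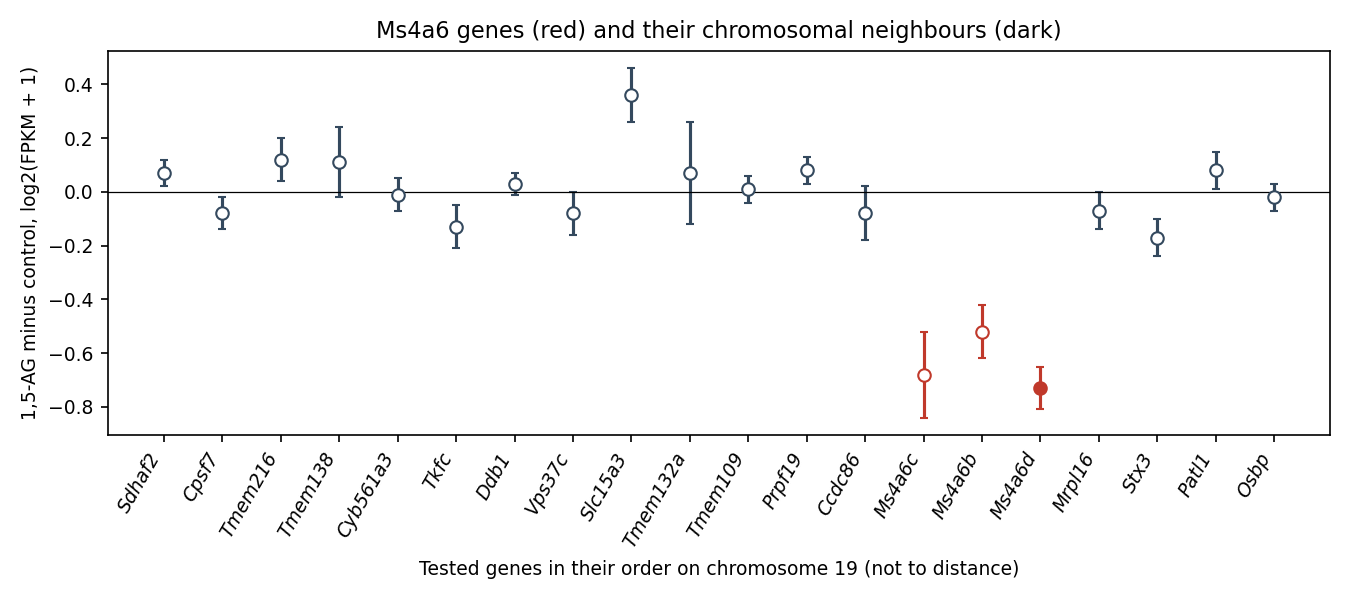
Difference between 1,5-AG and control on the log2(FPKM + 1) scale with its SE for the tested Ms4a6 genes (red) and 17 flanking genes (dark), in chromosomal order. Filled points are past the threshold. The 3 Ms4a6 genes lie at -0.52 to -0.73 and the neighbours at -0.17 to 0.36.

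Among genes listed here as partners of MS4A proteins, Vsir was called lower, and most Fc receptor genes had lower values without passing the test. Whether each product binds an MS4A protein was not checked, Vsir included. Of 14 listed genes 12 were tested, 1 was lower and 0 were higher by limma, against 0.647% lower and 0.809% higher of all tested genes. Of the 12, 10 were negative, and the median log2 fold change was -0.18. Vsir, the immune checkpoint protein VISTA of myeloid cells, had 21.7 and 21.3 FPKM in the 1,5-AG libraries, against 28.5 and 29.0 FPKM in the control libraries (-0.40, SE 0.04, limma adjusted p = 0.0286). Its call was also lost when any 1 library was left out, with limma's adjusted p at 0.106 to 0.141. Fcgr3, the low-affinity IgG receptor III, had 4.30 and 3.47 FPKM with 1,5-AG, against 6.69 and 7.21 FPKM in control (-0.71, SE 0.10, limma adjusted p = 0.0523). It passed with a mean filter of 5 FPKM (limma adjusted p = 0.0198), a robust variance (0.0425), a replicate block (0.0488) and voom (0.0017). Fcgr4, another activating IgG receptor, had 0.599 and 0.738 FPKM with 1,5-AG, against 1.31 and 1.42 FPKM in control (-0.51). With a pseudocount of 0.01 in place of 1 its value was -1.03, and under voom -1.01. The inhibitory receptor Fcgr2b had -0.26. Fcgr1, the high-affinity IgG receptor, had 0.11, and Clec7a, the beta-glucan receptor dectin-1, had 0.06. The signalling adaptors Tyrobp (-0.18) and Fcer1g (-0.12) and the kinase gene Syk (-0.17) had lower values in each 1,5-AG library than in each control library, without passing the limma test. Tyrobp passed with a mean filter of 5 FPKM (limma adjusted p = 0.0481), a replicate block (0.0374) and voom (0.00951), and Syk under voom (0.0412). Trem2, a lipid-sensing receptor that signals through Tyrobp, had 5.82 and 4.86 FPKM with 1,5-AG, against 12.2 and 5.63 FPKM in control. The 2 control libraries differed from each other more than the group means did (-0.57, SE 0.32, limma adjusted p = 0.434), and the log2 fold change was -0.07 without control replicate 1 and -1.06 without control replicate 2. In the store-operated calcium entry pair, Orai1 had -0.18 (-0.34 to -0.02 with 1 library left out) and Stim1 -0.06 (-0.11 to -0.01). Groups did not overlap, with 1,5-AG lower, in 8 of the 12 genes, against 25.4% of all tested genes. The list was drawn up with earlier results of these data known.

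**Figure D4:**
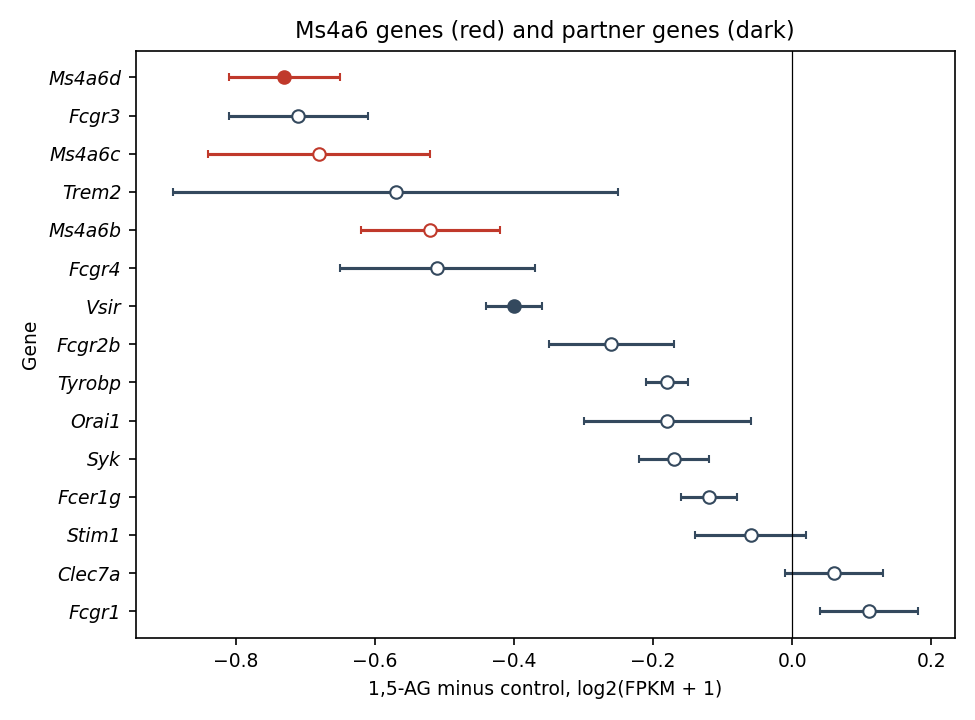
Difference between 1,5-AG and control on the log2(FPKM + 1) scale with its SE, sorted by value. The tested Ms4a6 genes are red and the 12 tested genes of the partner list are dark. Filled points are past the threshold: Ms4a6d at -0.73 and Vsir at -0.40.

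Receptors and transcription factors of signals that induce Ms4a genes in macrophages gave 1 call. Of 18 listed genes 16 were tested, 1 was lower and 0 were higher by limma, against 0.647% lower and 0.809% higher of all tested genes, with a median log2 fold change of -0.07. Il13ra1, a receptor chain for interleukin 4 and interleukin 13, had 12.2 and 12.8 FPKM in the 1,5-AG libraries, against 20.1 and 21.5 FPKM in the control libraries (-0.69, SE 0.06, limma adjusted p = 0.0209). Without any 1 library limma's adjusted p for Il13ra1 was 0.0893 to 0.104. The receptor gene Il4ra and the mannose receptor gene Mrc1, a marker of alternative activation, were under the filter, at most 0.422 and 0.269 FPKM in any library. Mrc1 had 12 and 12 fragments in the 1,5-AG libraries, against 26 and 24 in the control libraries. Il4ra had 37 and 34, against 33 and 34, and neither gene was tested. Stat6, which acts downstream of interleukin 4, had 44.3 and 44.9 FPKM with 1,5-AG, against 44.0 and 44.4 FPKM in control (0.01). Spi1, the myeloid factor PU.1, had 104 and 95.5 FPKM with 1,5-AG, against 120 and 103 FPKM in control (-0.16, and -0.05 without control replicate 1), and the groups overlapped.

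Across all 4 libraries the gene whose centred log2(FPKM + 1) profile lay nearest to that of Ms4a6d, among 7499 genes with a mean of at least 5 FPKM, was Fcgr3, at a Euclidean distance of 0.0701. The next were Klf4, a transcription factor of monocyte differentiation, at 0.112, and Alox5, the 5-lipoxygenase of leukotriene synthesis, at 0.127. Klf4 had 5.12 and 4.12 FPKM with 1,5-AG, against 8.98 and 8.23 FPKM in control, and Alox5 had 12.3 and 11.7 FPKM with 1,5-AG, against 19.5 and 19.1 FPKM in control. Both were past the threshold (limma adjusted p = 0.0461 for Klf4 and 0.0209 for Alox5) and neither was with any 1 library left out. Klf4 was also not past it with median-ratio scaling (0.0534) or quantile normalization (0.0549). Ms4a6c stood in place 16 of this order, at 0.205. The distance is over only 4 libraries, between which Ms4a6d itself differed mainly by group, and it was not tested.

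**Figure D5:**
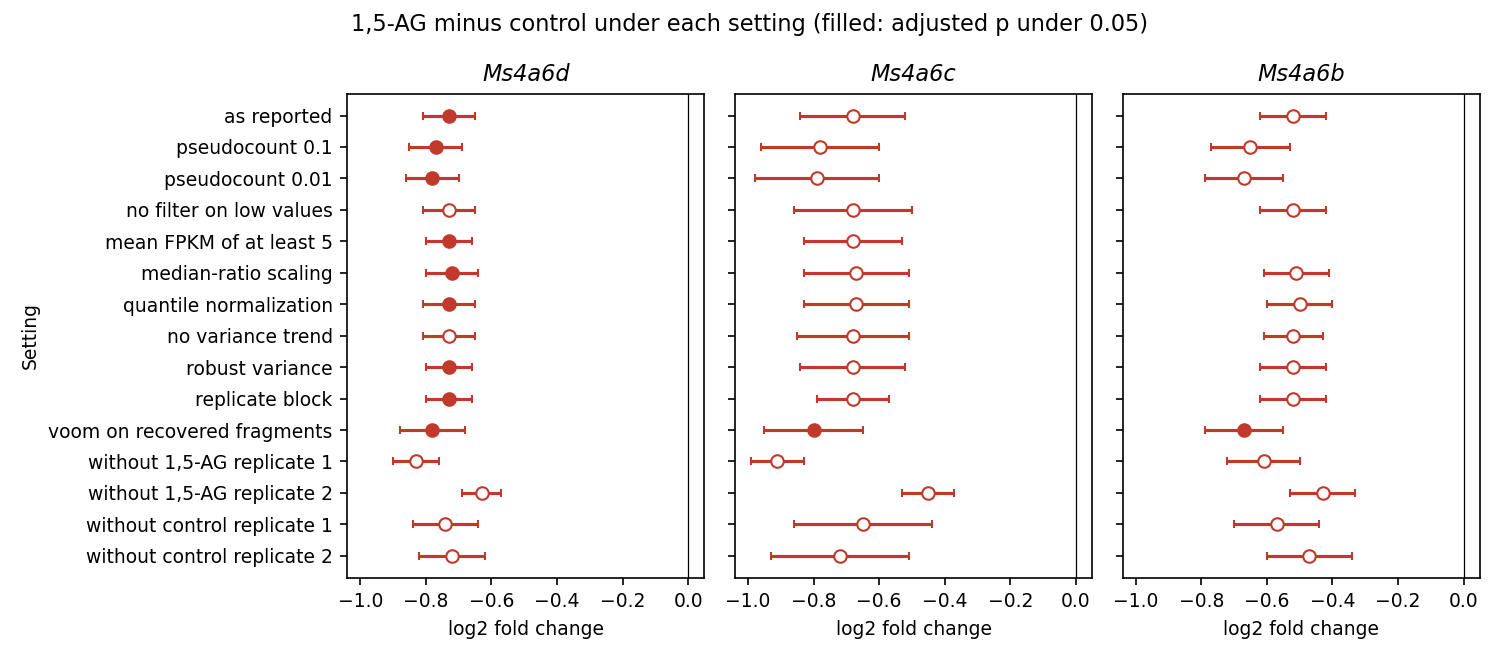
Log2 fold change (1,5-AG minus control) with its SE for Ms4a6d, Ms4a6c and Ms4a6b under each processing setting, filled where the adjusted p was under 0.05. Each value is below 0 in each setting shown, from -0.91 to -0.43, and Ms4a6b has no value where a mean of at least 5 FPKM was required.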

How the data were processed

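The deposited values are FPKM per gene and library. The tools HTSeq, Cufflinks, HISAT2 and Trimmomatic and the build mm10 are named in the submitters' processing notes, without versions, roles, strand setting or annotation release. The library kit was stranded and for mRNA, per the labels' protocols. Of 21523 identifiers, 21508 matched GENCODE M21, and 8 rows that shared a symbol with a row of higher mean were left out. FPKM times merged exon length gave whole fragments (tolerance 0.02) in all libraries for 99.4% of matched genes.

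Genes with a mean of at least 1 FPKM (11120) entered a two-sided limma test (version 3.58.1, R 4.3.3) of log2(FPKM + 1) on group alone, with a trended variance and Benjamini-Hochberg adjustment over all of them (threshold 0.05, 3.05 prior degrees of freedom). A permutation test of 2 against 2 libraries cannot go below 0.333. Adjusted p-values in the text are from this fit unless voom is named. The fit was tested on simulated fragments. Identities came from Biopython 1.88 global alignments, and promoter sequences are RefSeq's.

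The Ms4a genes, the lists, the motifs and the tests were chosen with earlier results of these data known. Named genes were the members, tested superfamily and flanking genes, up to 4 called genes of each other list (or the 2 with the smallest p), and the 3 genes nearest to the highest member and to the most changed one. Further genes of the partner and inducing lists were named after their values were seen. The result of 1 further motif is not reported here.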

Additional observations from a re-analysis of the deposited data

How the results depend on the processing

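Each refit kept the sign of Ms4a6d, Ms4a6c and Ms4a6b. The fit called 162 genes; dropping the low-value filter gave 0 (2628 at unadjusted p under 0.05), a mean of at least 5 FPKM 360, no variance trend 5 and voom 915. The count was 2 to 10 with 1 library left out. The cause was not tested, apart from the fewer genes or libraries that some settings impose. A lone library is assumed to vary like the other group. Ms4a6d, at -0.73, lost its call without a filter (-0.73, adjusted p = 0.125) and without the variance trend (-0.73, adjusted p = 0.0952). It also lost it with 1 library left out (-0.83 to -0.63). Ms4a6c (-0.80) and Ms4a6b (-0.67) gained a call under voom, and stayed uncalled with 1 library left out (-0.91 to -0.45 and -0.61 to -0.43). Scaling by median ratios or quantiles moved no member across the threshold. Same-numbered libraries deviated together at a correlation of 0.0124 across genes, so the numbers were not taken to pair libraries. The fit with a replicate block called 310 genes, and gave -0.73 for Ms4a6d (adjusted p = 0.0226), -0.68 for Ms4a6c (0.0605) and -0.52 for Ms4a6b (0.0866), with no member's call changed. Among other named genes, quantile normalization turned Ddb1 (-0.02), Tmem109 (-0.02), Stat6 (-0.01) and Cyb561a3 (0.02), and median-ratio scaling turned Cyb561a3 (0.00). With 1 library left out the sign changed for Ccdc86 (-0.20 to 0.05), Clec7a (-0.02 to 0.13), Cyb561a3 (-0.04 to 0.03), Mrpl16 (-0.15 to 0.02), Osbp (-0.07 to 0.03), Patl1 (-0.01 to 0.17), Tmem109 (-0.03 to 0.05), Tmem132a (-0.12 to 0.26) and Vps37c (-0.18 to 0.02). None of these genes was called in any of these fits. Depth limits Ms4a4c and Ms4a7, with at most 5 fragments in a library.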
